A study of Mus musculus with 10 samples.

Results

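Neutrophils carry a late set of antimicrobial proteins, in their secondary and tertiary granules and in their cytosol, and 10 genes for such proteins are described here in cultured mouse marrow progenitors. They are S100a8, S100a9, Camp, Ngp, Ltf, Lcn2, Mmp8, Mmp9, Pglyrp1 and Lrg1. All probe sets that the platform annotation assigns to these symbols were taken, which gave 11 of the 45101 probe sets on the array, 1 for each gene and 2 for Mmp9. The array names 18193 genes by a symbol of their own. Of the 11, 10 passed the filter on dim probe sets, a signal above 369 in at least 3 of the 10 arrays, and 1 Mmp9 probe set did not. Camp passed only through the 3 NUP98-NSD1 clones, so it could pass only as a gene that was high there.

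A granulocyte fills its granules in order as it matures. Promyelocytes make the proteins of the primary granules, such as myeloperoxidase and elastase, myelocytes and metamyelocytes then make those of the secondary granules, such as lactoferrin and cathelicidin, and gelatinase of the tertiary granules follows. S100a8 and S100a9 together form calprotectin, an abundant cytosolic protein of neutrophils and monocytes that binds calcium and withholds zinc and manganese from microbes.

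Each of 10 Affymetrix Mouse Genome 430 2.0 arrays held RNA of 1 culture. The progenitors came from primary marrow, had been immortalised by an oncogene and were derived in medium with stem cell factor and no GM-CSF. The groups were 1 culture with MLL-ENL (a histone methyltransferase joined to an elongation factor), 3 clones with NUP98-NSD1 (a nucleoporin joined to a histone methyltransferase), 3 clones with HoxA9 and Meis1 expressed together (HoxA9+Meis1) and 3 clones with the homeobox factor HoxA9 alone. No culture without an oncogene is among the samples, and the labels give neither the mouse strain nor how many animals the clones came from. The p-values therefore measure only the spread between these clones, which may be technical.

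Each value is the deposited signal of a probe set, on a linear scale. The mean log2 signal of the hybridization controls, 18 probe sets for spiked-in transcripts, was 14.003 to 14.12 on the MLL-ENL and NUP98-NSD1 arrays and 13.17 to 13.41 on the HoxA9+Meis1 and HoxA9 arrays. These 2 sets of arrays follow the groups, so in comparisons between them set and group cannot be told apart, while MLL-ENL beside NUP98-NSD1 and HoxA9+Meis1 against HoxA9 stay within a set. A Hoxa9 probe set read 6478 in MLL-ENL, 6783 to 8481 in NUP98-NSD1, 89613 to 103499 in HoxA9+Meis1 and 27259 to 59375 in HoxA9. Another Hoxa9 probe set read 35209 in MLL-ENL and 31804 to 36931 in NUP98-NSD1, but 25.7 to 29.3 in HoxA9+Meis1 and 25.9 to 50.8 in HoxA9. All 5 markers of myeloid progenitors (Kit, Cd34, Ptprc, Itgam and Mpo) were above the filter level on 8 arrays, and 4 of 5 were on those of HoxA9 clones 1 and 2, where Cd34 was not. In such bulk RNA, fewer cells of a type and less RNA per cell cannot be told apart.

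S100a8 (probe set 1419394_s_at), the smaller calprotectin chain, was read on every array and was brightest in NUP98-NSD1. Its signal was 12818 in MLL-ENL, 171057, 190110 and 264888 in NUP98-NSD1 clones 1 to 3, 40092, 30531 and 2819 in HoxA9+Meis1 clones 1 to 3, and 11141, 31060.2 and 60118 in HoxA9 clones 1 to 3. The NUP98-NSD1 clones all lay above the other 7 arrays, and those 7 overlapped one another. On the scale of log2(signal + 32) the difference was 2.90 (SE 0.87, adjusted p = 0.0305) for NUP98-NSD1 against HoxA9 and 3.76 (SE 0.87, adjusted p = 0.00906) against HoxA9+Meis1. HoxA9+Meis1 against HoxA9 gave -0.86 (SE 0.87, adjusted p = 0.719). The difference from HoxA9 was close to the threshold of 0.05, and 8 of 20 alternative settings put its adjusted p above it, at most 0.102.

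S100a9 (1448756_at), the partner chain, did not follow S100a8 in all groups. Its signal was 91.4 in MLL-ENL, 168207, 197465 and 268316 in NUP98-NSD1, 36682, 21773 and 1708 in HoxA9+Meis1, and 621, 69.2 and 793 in HoxA9. The 4 groups did not overlap except that the MLL-ENL value lay within the HoxA9 range. NUP98-NSD1 exceeded HoxA9 by 9.10 on the log2 scale (SE 1.03, adjusted p = 0.000211, a 547-fold difference of signal + 32). It exceeded HoxA9+Meis1 by 4.21 (SE 1.03, adjusted p = 0.0117), and by 2.87 without HoxA9+Meis1 clone 3 and 5.07 without clone 1. HoxA9+Meis1 in turn exceeded HoxA9 by 4.88 (SE 1.03, adjusted p = 0.0177), within 1 set of arrays. This last call was lost without HoxA9+Meis1 clone 1 (adjusted p = 0.0705) or clone 2 (0.0773) and without HoxA9 clone 2 (0.0635). Since 1 HoxA9 clone was below the filter level, the 547-fold value depends on how dim signals are treated, and with all values under 369 set to that level the log2 difference from HoxA9 was 8.43.

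The log2 ratio of the S100a8 to the S100a9 signal measures how far the 2 genes moved apart, although its level depends on the probes and only its differences between arrays can be read. It was 7.13 in MLL-ENL, 0.02, -0.05 and -0.02 in NUP98-NSD1, 0.13, 0.49 and 0.72 in HoxA9+Meis1, and 4.16, 8.81 and 6.24 in HoxA9. The ratio averaged -0.02 ± 0.04 in NUP98-NSD1, 0.45 ± 0.30 in HoxA9+Meis1 and 6.41 ± 2.33 in HoxA9 (SD, n = 3 each). S100a9 was under the filter level in MLL-ENL and in HoxA9 clone 2, so these 2 ratios have only a bound, at least 5.12 and at least 6.39 with S100a9 set at that level, and the HoxA9 mean is then 5.601 ± 1.25. Either way the 3 replicated groups did not overlap and MLL-ENL lay above NUP98-NSD1 and HoxA9+Meis1. The difference of its mean was -6.42 for NUP98-NSD1 minus HoxA9, -0.46 for NUP98-NSD1 minus HoxA9+Meis1 and -5.96 for HoxA9+Meis1 minus HoxA9, each with an exact two-sided permutation p = 0.1, the smallest that 3 clones against 3 allow. With S100a9 at the filter level the differences from HoxA9 were -5.62 for NUP98-NSD1 and -5.15 for HoxA9+Meis1. The genes are neighbours on chromosome 3 with 0 annotated genes between them.

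**Figure D1:**
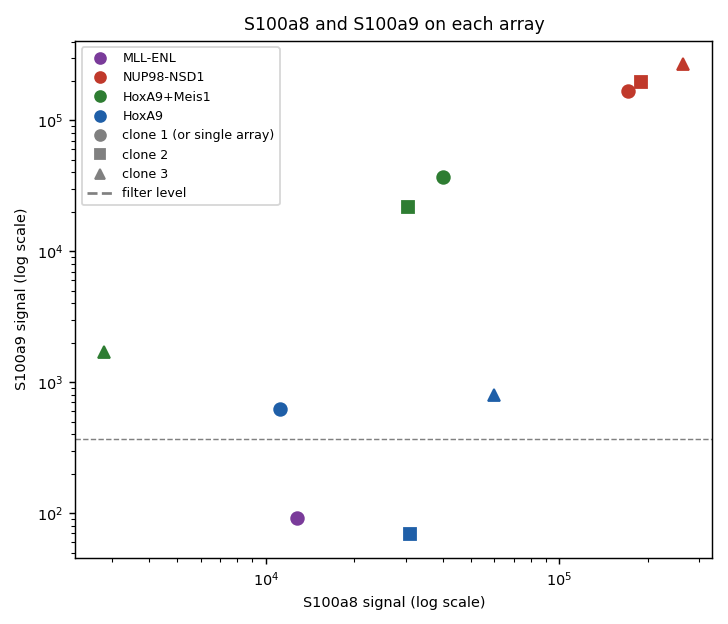
Signal of S100a9 (vertical axis) against S100a8 (horizontal axis), both on log scales, with 1 point per array, colour for the group and shape for the clone. The NUP98-NSD1 and HoxA9+Meis1 clones rise together on both axes, while the MLL-ENL array and the HoxA9 clones have S100a8 signals of 11141 or more with S100a9 signals of at most 793.

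The 250 bases upstream of the RefSeq start of both genes are printed 5′ to 3′ on the gene's strand, because the 2 adjacent genes differed in the HoxA9 and MLL-ENL cells. Capitals mark matches, on either strand, to TTGCNNAA (a C/EBP motif), GAGGAA (a PU.1 motif), TGTGGT (a Runt factor motif) or TATAAA, and the match to GAGGAA nearest the S100a8 start runs directly into TATAAA.
S100a8 (GRCm38.p6 chr3:90668821-90669070, plus strand): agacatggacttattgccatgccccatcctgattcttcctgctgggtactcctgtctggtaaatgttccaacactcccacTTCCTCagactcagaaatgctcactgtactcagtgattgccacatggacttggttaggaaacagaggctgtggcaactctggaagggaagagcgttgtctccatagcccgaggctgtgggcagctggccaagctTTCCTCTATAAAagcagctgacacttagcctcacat
S100a9 (GRCm38.p6 chr3:90695722-90695971, minus strand): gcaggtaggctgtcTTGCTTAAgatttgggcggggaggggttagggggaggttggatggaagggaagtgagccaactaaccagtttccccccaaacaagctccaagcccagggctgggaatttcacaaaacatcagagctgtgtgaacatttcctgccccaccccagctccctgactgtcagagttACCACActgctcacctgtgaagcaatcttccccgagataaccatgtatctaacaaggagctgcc
S100a8 held 2 matches to GAGGAA and 1 to TATAAA, which starts 30 bases upstream of the gene. S100a9 held 1 match to TTGCNNAA, 236 bases upstream, and 1 to TGTGGT, 64 bases upstream. Among 32851 RefSeq promoters of the same length, 9.56% held TTGCNNAA, 23.3% GAGGAA and 12.4% TATAAA, and 4614 promoters held TGTGGT. A match describes letters and does not show that a factor binds there.

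Camp (1419691_at), the cathelicidin from which an antimicrobial peptide is cut, was above the filter level in NUP98-NSD1 alone. The signal was 42.4 in MLL-ENL, 6886, 6798 and 91350.2 in NUP98-NSD1, 117, 48.3 and 36.8 in HoxA9+Meis1, and 48.1, 36.3 and 75.8 in HoxA9. All 7 arrays outside NUP98-NSD1 were at dim values that have no order, and the 3 NUP98-NSD1 clones were far above them. NUP98-NSD1 was at least 40.6-fold higher than HoxA9 (adjusted p = 0.000207) and than HoxA9+Meis1 (adjusted p = 0.000232), with the dimmer group set at the filter level. The bound was 17.1-fold without NUP98-NSD1 clone 3, and 62.3-fold and 62.7-fold without clones 1 and 2.

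Ngp (1418722_at), the neutrophilic granule protein of the mouse, was detected in all groups. Its signal was 887 in MLL-ENL, 70399, 88526 and 237055 in NUP98-NSD1, 11961, 6332 and 1688 in HoxA9+Meis1, and 1403, 1365 and 1082 in HoxA9. The groups stood in that order of height without overlap, NUP98-NSD1 above HoxA9+Meis1 above HoxA9 above MLL-ENL. NUP98-NSD1 exceeded HoxA9 by 6.45 (SE 0.62, adjusted p = 8.33e-05) and HoxA9+Meis1 by 4.49 (SE 0.62, adjusted p = 0.000586). HoxA9+Meis1 against HoxA9 gave 1.96 (SE 0.62, adjusted p = 0.0929) and did not pass. Without HoxA9+Meis1 clone 3, the dimmest of its group, it was 2.74 with an adjusted p of 0.00667.

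Ltf (1450009_at), the iron-binding lactoferrin of the secondary granules, was raised mainly in 1 clone. The signal was 23.2 in MLL-ENL, 2589, 2708 and 42737 in NUP98-NSD1, 703, 1057 and 824 in HoxA9+Meis1, and 557, 734 and 684 in HoxA9. The NUP98-NSD1 clones lay above all others, the HoxA9+Meis1 and HoxA9 clones overlapped, and the MLL-ENL value was below the filter level. NUP98-NSD1 exceeded HoxA9 by 3.30 (SE 0.85, adjusted p = 0.0155) and HoxA9+Meis1 by 2.94 (SE 0.85, adjusted p = 0.0243). Without NUP98-NSD1 clone 3 these became 1.97 (adjusted p = 0.000895) and 1.60 (adjusted p = 0.00246). The call against HoxA9+Meis1 was lost without HoxA9+Meis1 clone 1 (adjusted p = 0.0711), clone 2 (0.0533) or clone 3 (0.0579). HoxA9+Meis1 against HoxA9 gave 0.36 (SE 0.85, adjusted p = 0.914).

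Camp, Ngp and Ltf lie on chromosome 9, and their 250 upstream bases are printed with the same motifs in capitals, because these 3 granule genes were all raised in NUP98-NSD1.
Camp (GRCm38.p6 chr9:109849457-109849706, minus strand): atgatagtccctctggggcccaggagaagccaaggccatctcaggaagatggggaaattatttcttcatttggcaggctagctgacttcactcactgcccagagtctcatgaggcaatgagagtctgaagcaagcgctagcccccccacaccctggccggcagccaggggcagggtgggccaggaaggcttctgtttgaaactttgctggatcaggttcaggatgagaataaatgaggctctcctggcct
Ngp (GRCm38.p6 chr9:110419558-110419807, plus strand): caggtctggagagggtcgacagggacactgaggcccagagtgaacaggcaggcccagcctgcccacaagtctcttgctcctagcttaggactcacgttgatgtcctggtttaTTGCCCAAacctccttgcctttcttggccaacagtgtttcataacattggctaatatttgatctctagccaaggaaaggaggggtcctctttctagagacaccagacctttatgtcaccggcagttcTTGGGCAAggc
Ltf (GRCm38.p6 chr9:111019042-111019291, plus strand): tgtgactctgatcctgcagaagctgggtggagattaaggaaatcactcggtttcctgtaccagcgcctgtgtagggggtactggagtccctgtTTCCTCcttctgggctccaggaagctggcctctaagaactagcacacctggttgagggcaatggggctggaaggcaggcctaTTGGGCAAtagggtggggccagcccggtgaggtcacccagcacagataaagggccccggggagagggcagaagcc
Ngp held 2 matches to TTGCNNAA, 138 and 11 bases upstream of its start, and Ltf held 1, 75 bases upstream, beside 1 match to GAGGAA. In the Camp window none of the 4 motifs was found. Of the 9 members with a RefSeq promoter entry, 5 held TTGCNNAA (Lcn2, S100a9, Mmp8, Ngp and Ltf) and 5 held GAGGAA (Lcn2, S100a8, Pglyrp1, Mmp8 and Ltf). Mmp9 was not among the entries.

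Lcn2 (1427747_a_at), lipocalin 2, which captures iron-carrying siderophores of bacteria, was bright in NUP98-NSD1 and in 1 HoxA9 clone. Its signal was 641 in MLL-ENL, 9403, 10081 and 65827 in NUP98-NSD1, 1199, 855 and 812 in HoxA9+Meis1, and 691, 2722 and 10088 in HoxA9. HoxA9 clone 3 lay within the NUP98-NSD1 range, whereas the HoxA9+Meis1 clones lay below all of it. NUP98-NSD1 exceeded HoxA9+Meis1 by 4.24 (SE 0.89, adjusted p = 0.00554), and by 3.33 without NUP98-NSD1 clone 3. Against HoxA9 the difference was 2.76 (SE 0.89, adjusted p = 0.0406). It was 1.84 without NUP98-NSD1 clone 3 (adjusted p = 0.123), 1.81 without HoxA9 clone 1 (0.125) and 3.71 without HoxA9 clone 3 (0.0113). HoxA9+Meis1 against HoxA9 gave -1.48 (SE 0.89, adjusted p = 0.437).

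Mmp8 (1449366_at), the neutrophil collagenase of the secondary granules, separated HoxA9 from the rest. The signal was 4034 in MLL-ENL, 8968, 10421 and 11065 in NUP98-NSD1, 3936, 10186 and 2259.7 in HoxA9+Meis1, and 377, 482 and 831 in HoxA9. The 3 HoxA9 clones lay below the other 7 arrays, and HoxA9+Meis1 clone 2 reached into the NUP98-NSD1 range. NUP98-NSD1 exceeded HoxA9 by 4.16 (SE 0.45, adjusted p = 0.000162), and HoxA9+Meis1 exceeded HoxA9 by 3.00 (SE 0.45, adjusted p = 0.00311) and by 2.41 without its clone 2. NUP98-NSD1 against HoxA9+Meis1 gave 1.16 (SE 0.45, adjusted p = 0.0737), which became 1.75 (adjusted p = 0.00597) without HoxA9+Meis1 clone 2.

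Mmp9, the gelatinase of the tertiary granules, was the member with no call in the 3 replicated comparisons. Its brighter probe set (1416298_at) read 87.4 in MLL-ENL, 269, 1189 and 1913 in NUP98-NSD1, 883, 582 and 578 in HoxA9+Meis1, and 849, 885 and 793 in HoxA9. NUP98-NSD1 clone 1 lay below every HoxA9+Meis1 and HoxA9 clone and the other NUP98-NSD1 clones lay above them. The difference from HoxA9 was 0.03 (SE 0.56, adjusted p = 0.97) and from HoxA9+Meis1 0.35 (SE 0.56, adjusted p = 0.666), which became 1.14 (adjusted p = 0.023) without NUP98-NSD1 clone 1. The dim probe set (1448291_at), which failed the filter, read 30.9 in MLL-ENL, 489, 105 and 1177 in NUP98-NSD1, 35.5, 80.9 and 78.1 in HoxA9+Meis1, and 171, 78.4 and 92.9 in HoxA9. It was above the filter level in NUP98-NSD1 clones 1 and 3 alone. With no filter it gave 2.23 for NUP98-NSD1 against HoxA9+Meis1 (adjusted p = 0.0437) and 1.65 against HoxA9 (adjusted p = 0.125). The probe sets gave clones 1 and 2 of NUP98-NSD1 in opposite order.

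Pglyrp1 (1449184_at), a granule protein that binds bacterial peptidoglycan, varied widely among the HoxA9 clones. Its signal was 954 in MLL-ENL, 43559.7, 47483 and 107887 in NUP98-NSD1, 1822, 1229 and 1616 in HoxA9+Meis1, and 21.9, 661 and 2729.6 in HoxA9. The NUP98-NSD1 clones were above all other arrays, and the HoxA9 clones lay on both sides of the HoxA9+Meis1 and MLL-ENL values. NUP98-NSD1 exceeded HoxA9 by 7.02 (SE 1.07, adjusted p = 0.00109) and HoxA9+Meis1 by 5.27 (SE 1.07, adjusted p = 0.00449). The difference from HoxA9 was 5.46 without HoxA9 clone 1, 8.30 without HoxA9 clone 3 and 6.05 with the dim HoxA9 clone 1 set at the filter level. HoxA9+Meis1 against HoxA9 gave 1.74 (SE 1.07, adjusted p = 0.446).

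Lrg1 (1417290_at) encodes a secreted leucine-rich glycoprotein that neutrophils also store in granules. The signal was 298 in MLL-ENL, 3526, 4235 and 18947 in NUP98-NSD1, 64.9, 52.1 and 34.3 in HoxA9+Meis1, and 170.1, 77.9 and 916 in HoxA9. Only the NUP98-NSD1 clones and HoxA9 clone 3 were above the filter level. NUP98-NSD1 was at least 16.5-fold higher than HoxA9+Meis1 (adjusted p = 0.000353) and, with NUP98-NSD1 clone 3 left out, at least 9.71-fold higher. It exceeded HoxA9 by 4.58 on the log2 scale (SE 0.79, adjusted p = 0.00228), by 3.82 without NUP98-NSD1 clone 3, by 3.92 without HoxA9 clone 2 and by 5.47 without HoxA9 clone 3. With values under the filter level set to it, as for HoxA9 clones 1 and 2, the difference was 3.63. HoxA9+Meis1 against HoxA9 gave -1.76 (SE 0.79, adjusted p = 0.26), with no overlap between the groups and 1 of the 6 clones above the filter level.

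**Figure D2:**
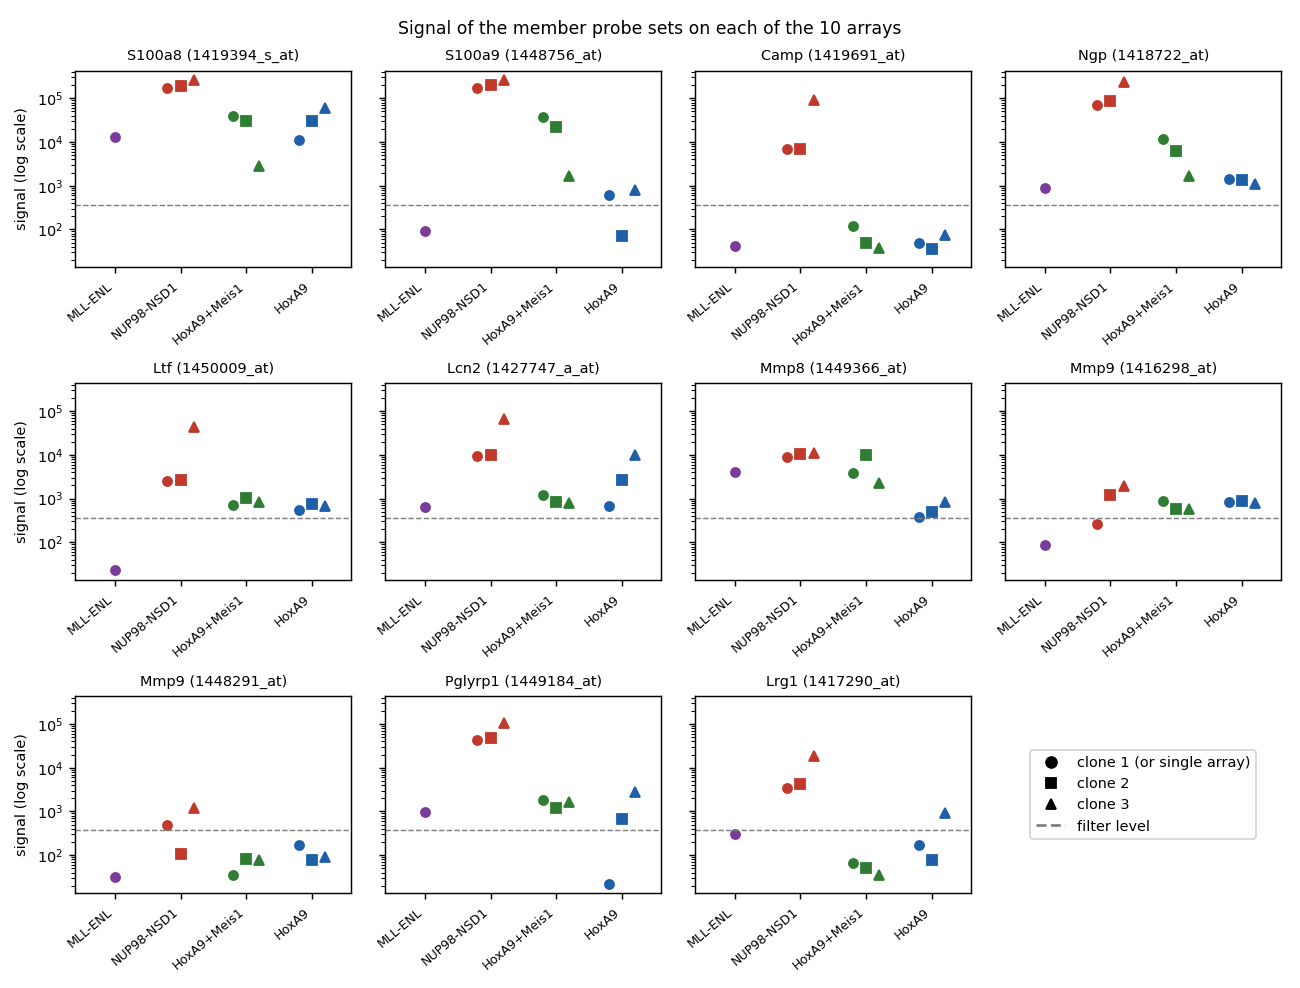
Signal (log scale) of the 11 probe sets on the 10 arrays, 1 panel per probe set, with groups along the horizontal axis, 1 point per array, shape for the clone and a dashed line at the filter level of 369. In NUP98-NSD1 the triangle, clone 3, is the highest of the 3 clones in every panel, and in the Camp panel the 7 arrays of the other groups lie under the line.

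Between NUP98-NSD1 and HoxA9, 9 of the 10 probe sets that passed the filter were called higher and 0 lower, where 29.0% of all 30945 tested probe sets were called either way and 12.3% were called higher. For 8 of these the clones did not overlap, as for 18.1% of all tested probe sets in that direction. Lcn2 was the called member whose groups overlapped. The median log2 difference was 4.37 over the members and -0.14 over all probe sets. Against HoxA9+Meis1, 8 of 10 were called higher and 0 lower, where 30.9% of all probe sets were called either way and 13.8% higher. All 8 did not overlap, as did 19.5% of all probe sets in that direction, and the medians were 4.23 over the members and -0.13 over all. These counts include Camp and Lrg1, whose place among the tested probe sets rests mostly on their NUP98-NSD1 signal, and both comparisons share the NUP98-NSD1 arrays and cross the 2 sets of arrays. When arrays were scaled to a common level of the hybridization controls, the median of all probe sets moved by -0.77 in both comparisons.

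Between HoxA9+Meis1 and HoxA9, S100a9 and Mmp8 were called higher and 0 members lower, where 6.89% of all probe sets were called either way and 3.4% higher. Ngp, S100a9 and Mmp8 did not overlap upward and Lrg1 downward, which is 4 of 10 where 28.6% of all probe sets did not overlap. The member median was 0.26 and that of all probe sets -0.02. The difference was positive for 6 members and negative for 4 (S100a8, Lcn2, Mmp9 and Lrg1), and 8 of 10 did not pass the test.

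**Figure D3:**
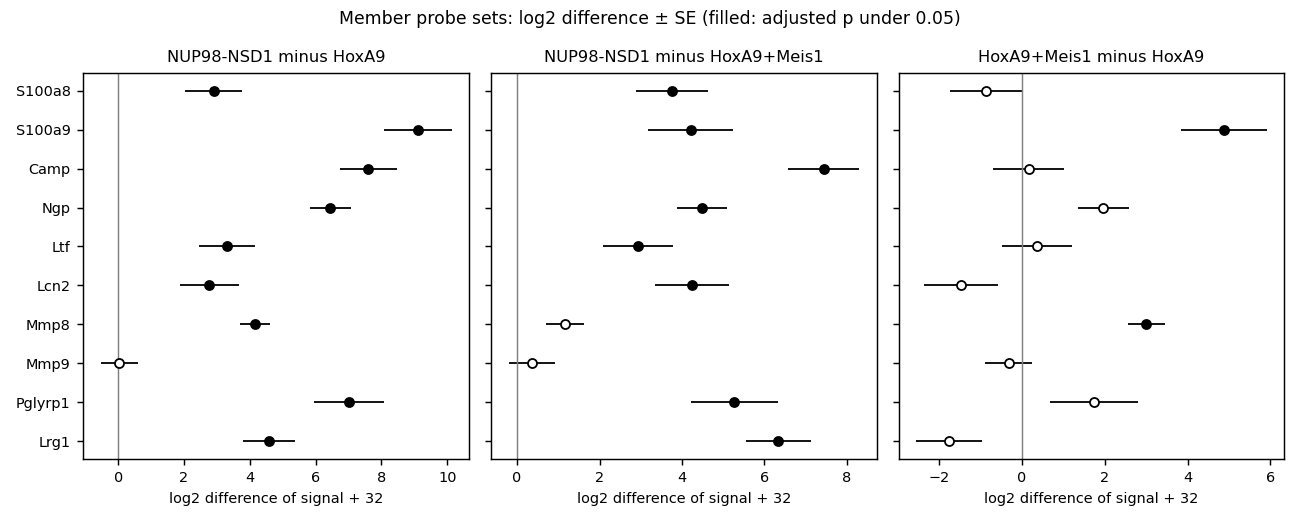
Log2 difference of signal + 32 with its standard error for the 10 member probe sets that passed the filter, in 3 comparisons. Filled points passed an adjusted p of 0.05; in the panels for NUP98-NSD1 nearly all are filled and lie to the right of 0, up to 9.10 for S100a9, while for HoxA9+Meis1 against HoxA9 S100a9 and Mmp8 alone are filled.

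The single MLL-ENL array allows no test, so it was set beside the range of each group's clones. A member was counted where its signal + 32 differed at least 4-fold and lay outside that range. Signals under the filter level were counted as read, so a counted member can have a lower bound under 4-fold. That held for Mmp9 beside each group and for Ltf beside HoxA9+Meis1 and HoxA9. Beside NUP98-NSD1, on the same set of arrays, 9 of 10 members were lower and 0 higher, where 4.64% of all probe sets were counted either way and 3.74% as lower. The 9 include Camp and Lrg1, whose place among the tested probe sets rests mostly on their NUP98-NSD1 signal. For these the filter favoured a lower MLL-ENL signal. Mmp8 also lay below all NUP98-NSD1 clones, with a log2 difference of -1.32. S100a8 was lower by a log2 difference of -4.00, Ngp of -6.95, Pglyrp1 of -5.94 and Lcn2 of -4.78. S100a9 was at least 517-fold lower, Camp at least 40.6-fold, Ltf at least 16.8-fold, Lrg1 at least 16.5-fold and Mmp9 at least 2.23-fold, since the MLL-ENL signal was under the filter level. Without NUP98-NSD1 clone 3 these bounds were 17.1-fold for Camp, 6.68-fold for Ltf, 9.71-fold for Lrg1 and 1.51-fold for Mmp9, and without clone 1 they were 62.3-fold, 27.0-fold, 22.4-fold and 3.84-fold. The log2 difference of Lcn2 was -3.86 without clone 3, and the count of 9 lower members held without each clone.

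Beside HoxA9+Meis1, MLL-ENL was lower in 4 members and higher in 1, where 8.2% of all probe sets were counted. S100a9 was at least 27.8-fold lower in MLL-ENL, Ltf at least 2.20-fold, Mmp9 at least 1.74-fold, and Ngp had a log2 difference of -2.47, which was -1.85 and not counted without HoxA9+Meis1 clone 1. The S100a9 bound was 15.4-fold without that clone and 70.5-fold without clone 3. The higher one was Lrg1, with all 4 values below the filter level, so no fold is given. Beside HoxA9, MLL-ENL was lower in 3 members and higher in Mmp8, where 6.83% of all probe sets were counted. Mmp8 read 4034 in MLL-ENL against 377 to 831 in HoxA9, a log2 difference of 2.84. Lcn2 had a difference of -2.02, close to the log2 threshold of 2, which was -1.07 without HoxA9 clone 3. Ltf was at least 1.71-fold and Mmp9 at least 2.18-fold lower in MLL-ENL. The count of lower members was 2 without HoxA9 clone 3 and 4 without clone 2, where S100a9 joined, and Pglyrp1 counted as higher (2.35) without clone 3. Both of these comparisons cross the sets of arrays.

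By the median range, the clones of a group differed more in these genes than over all probe sets, but not in every member. The log2 range of Mmp8 in NUP98-NSD1 was 0.30, below the median of all probe sets. Those of Mmp9 (0.15), Ngp (0.37) and Ltf (0.38) in HoxA9 were below the median there. In NUP98-NSD1, clone 3 was the highest of the 3 for 10 of 10 members, while it was the highest for 29.3% of all tested probe sets. That share was not matched to the brightness of the members, and the median signal of the clone 3 array was 455, against 638 and 558 for clones 1 and 2. The ratio of the highest to the lowest clone was 16.5 for Ltf, 13.4 for Camp, 7.10 for Mmp9, 7.001 for Lcn2, 5.37 for Lrg1, 3.37 for Ngp, 2.48 for Pglyrp1, 1.60 for S100a9, 1.55 for S100a8 and 1.23 for Mmp8, and the lowest Mmp9 signal was under the filter level. S100a8 and S100a9 were among the 73 brightest probe sets of each NUP98-NSD1 array and the 2 brightest on that of clone 3, and whether signals so near the top of the array can spread as far as dimmer ones was not tested. The median range between clones was 2.08 on the log2 scale for the members and 0.62 for all probe sets, and 5 of 10 members ranged over at least 2, where 9.92% of all did.

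Mast cell and basophil markers were lower in NUP98-NSD1 clone 3 than in clones 1 and 2. The summed signal of the 5 mast cell and basophil markers (Cpa3, Fcer1a, Mcpt8, Tpsb2 and Cma1) was 2033 in MLL-ENL, 242469, 224188 and 45107 in NUP98-NSD1 clones 1 to 3, 12684 to 22740.2 in HoxA9+Meis1 and 4836 to 10138 in HoxA9. Clone 3 was the lowest NUP98-NSD1 clone where the granule genes were the highest, and Tpsb2 was under the filter level in it. Cpa3, the mast cell carboxypeptidase, read 96364, 94796 and 33297 in the 3 clones, Fcer1a, a chain of the IgE receptor, 29473, 19971 and 1115, and Cma1, a mast cell chymase, 61664, 52547 and 1999. The 2 measured markers of mature neutrophils, Cxcr2 and Il1r2, summed to 413 in MLL-ENL, 1674 to 2398 in NUP98-NSD1, 311 to 695 in HoxA9+Meis1 and 294 to 604 in HoxA9. The 5 monocyte and macrophage markers summed to 52927 in MLL-ENL, 26662, 28046 and 30784 in NUP98-NSD1 clones 1 to 3, 21133 to 47009.6 in HoxA9+Meis1 and 13515 to 26283 in HoxA9. The part of these cell types in the member signals was not tested.

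**Figure D4:**
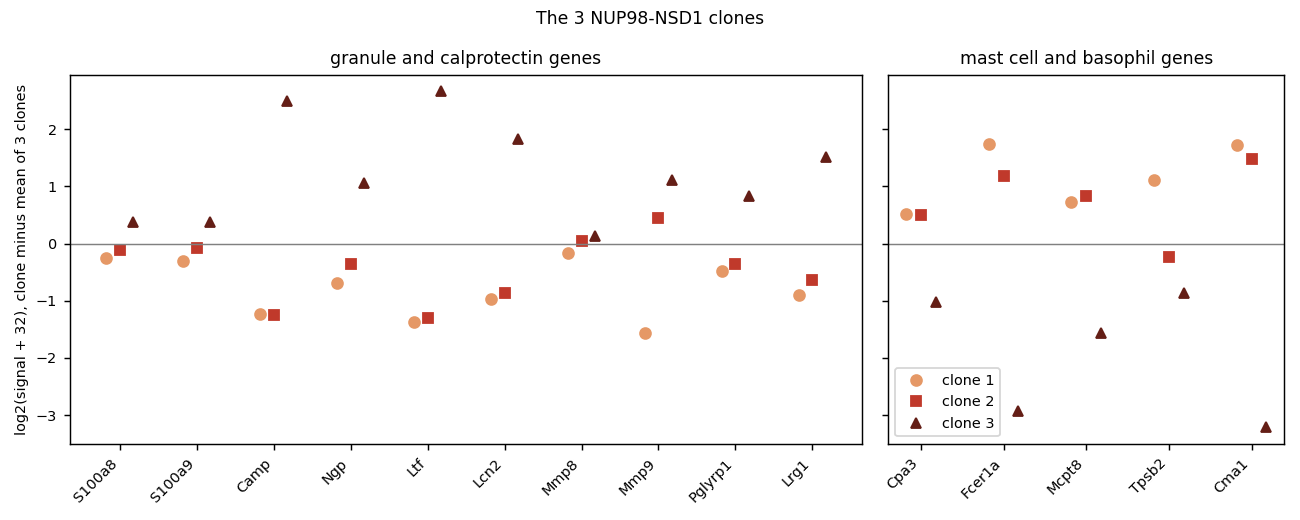
Deviation of each NUP98-NSD1 clone from the mean of the 3 clones, in log2(signal + 32), for the member genes (left) and the mast cell and basophil markers (right). Clone 3 (dark triangles) lies above the other 2 clones in every member gene and below them in every mast cell marker.

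In HoxA9+Meis1, among the 8 members with a clone above the filter level, clone 1 was the highest for 6 and clone 2 for Mmp8 and Ltf, while clone 3 was the highest for 0, where it was the highest for 32.3% of all such probe sets. The highest clone exceeded the lowest 21.5-fold for S100a9, 14.2-fold for S100a8, 7.09-fold for Ngp and 4.51-fold for Mmp8. In each of these 4 genes clone 3 was the dimmest. In HoxA9, clone 3 was the highest for 6 of 9 such members, where it was the highest for 35.9% of all such probe sets, and the ratio of the highest to the lowest clone was 125 for Pglyrp1, 14.6 for Lcn2, 11.8 for Lrg1, 11.5 for S100a9 and 5.40 for S100a8. The lowest Pglyrp1, Lrg1 and S100a9 signals were under the filter level, so those 3 ratios have no firm size. Over these members the median range was 1.37 in HoxA9+Meis1 and 2.43 in HoxA9, beside 0.40 and 0.39 over all such probe sets.

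Other genes of secondary and tertiary granules and of the neutrophil cytosol were taken from a list of 27, of which 21 were tested, with 1 probe set per gene. Between NUP98-NSD1 and HoxA9, 8 were called higher and 2 lower, where 31.4% of 14233 genes were called. The median was 1.20 for the list and -0.14 for all genes. Stfa2l1, a stefin, was at least 32.5-fold higher (adjusted p = 0.000949), Olfm4, a granule olfactomedin, rose by 3.44 (SE 0.83, adjusted p = 0.012), Chil1, a chitinase-like protein, by 3.34 (SE 0.62, adjusted p = 0.00321) and Lyz2, lysozyme, by 2.27 (SE 0.43, adjusted p = 0.00366). Hpx, which binds haem, had a difference of -1.41 (adjusted p = 0.0291) and Gsr, glutathione reductase, of -0.56 (adjusted p = 0.037). Stfa2l1, Olfm4 and Chil1 also shared the high NUP98-NSD1 clone 3, with signals of 98152, 23015 and 14021 there, against at most 6739, 3114 and 2539.7 in the other 2 clones. Without clone 3 the Stfa2l1 bound was 11.9-fold (64.3-fold without clone 1), and the differences of Olfm4 and Chil1 were 2.43 and 2.48. The Hpx and Gsr calls were lost in 4 and 5 of the 6 fits that left out a clone of either group (adjusted p at most 0.0892 and 0.121).

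Against HoxA9+Meis1, 10 of the 21 were called higher in NUP98-NSD1 and 2 lower, where 32.6% of genes were called. Chil3, a chitinase-like protein, read 680, 1625 and 25368 in NUP98-NSD1 and at most 296 in HoxA9+Meis1, at least 7.74-fold higher (adjusted p = 0.0182). Leaving out NUP98-NSD1 clone 3 put this bound at 2.71-fold. Its call was lost without HoxA9+Meis1 clone 1 (0.0611) or 3 (0.0563). Stfa2l1 gave 4.69 (adjusted p = 0.00919), and 3.23 without NUP98-NSD1 clone 3. Cybb, a chain of the NADPH oxidase, gave 3.37 (adjusted p = 0.0378), a call lost without any 1 clone of either group other than HoxA9+Meis1 clone 2 (adjusted p at most 0.125). Between HoxA9+Meis1 and HoxA9, 1 was called higher and 2 lower, where 8.66% of genes were called. Cd177, a neutrophil surface protein stored in secondary granules, was at least 7.79-fold lower in HoxA9+Meis1 (adjusted p = 0.0311), at 110, 228 and 104 against 692, 3757 and 11108 in HoxA9. The bound was 4.13-fold without HoxA9 clone 3 and 16.2-fold without clone 1, and the call was lost without any 1 clone of either group other than HoxA9 clone 1 (adjusted p at most 0.107).

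Of 7 other tested S100 genes, 2 were called higher in NUP98-NSD1 than in HoxA9 and 2 lower, where 31.4% of all genes were called. S100a4 read 13640.0 in MLL-ENL, 10878, 12453 and 11594 in NUP98-NSD1, 11404, 9629.8 and 2611 in HoxA9+Meis1, and 106, 562 and 721 in HoxA9. NUP98-NSD1 exceeded HoxA9 in S100a4 by 4.88 (SE 0.63, adjusted p = 0.000456) and HoxA9+Meis1 exceeded HoxA9 by 4.07 (SE 0.63, adjusted p = 0.0037), so that its HoxA9 clones lay below the other 7 arrays, as for Mmp8. Without HoxA9 clone 1 these were 4.12 and 3.31, and the second was 4.73 without HoxA9+Meis1 clone 3. S100a6 was higher in NUP98-NSD1, with differences of 3.50 from HoxA9 (adjusted p = 0.00521) and 3.01 from HoxA9+Meis1 (adjusted p = 0.00998), and of 2.86 to 4.41 from HoxA9 with a HoxA9 clone left out. The brightest S100a10 probe set was lower in NUP98-NSD1, with differences of -1.09 from HoxA9 (adjusted p = 0.0151) and -1.49 from HoxA9+Meis1 (adjusted p = 0.00298). Another bright S100a10 probe set was not called, at -0.16 (adjusted p = 0.72) and -0.64 (0.122). Nor was a dim one, at 0.04 (0.964) and 0.02 (0.977), so the decrease is not settled for the gene. The S100a10 call against HoxA9 was lost without NUP98-NSD1 clone 1 (0.0519). S100a1 gave -0.95 against HoxA9 (adjusted p = 0.0214, lost in 3 of the 6 fits that left out a clone, at most 0.0738) and 1.18 against HoxA9+Meis1 (adjusted p = 0.00738).

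The list of receptors and inhibitors of the member proteins held 14 genes. Of these, 3 were higher and 2 lower in NUP98-NSD1 than in HoxA9, where 31.4% of all genes were called. Endoglin (Eng), a TGF-beta co-receptor that Lrg1 protein binds, rose by 3.26 (SE 0.39, adjusted p = 0.000273). Against HoxA9+Meis1 its rise was 3.61 (adjusted p = 0.00016). Its signal was 435 in MLL-ENL, 7004, 7531 and 8762 in NUP98-NSD1, 598, 1068 and 339 in HoxA9+Meis1, and 499, 800 and 1168 in HoxA9, without overlap for NUP98-NSD1. Timp2, an inhibitor of matrix metalloproteinases, was higher by 1.19 (adjusted p = 0.0155), and Timp3, another, lower by a difference of -1.05 (adjusted p = 0.047). The Timp2 call was lost without HoxA9 clone 3 (0.0508) and with a common hybridization control level (0.195). That of Timp3 was lost in 4 of the 6 fits that left out a clone (at most 0.148). Tlr4, a receptor for calprotectin, was lower in HoxA9+Meis1 than in HoxA9 with -1.21 (adjusted p = 0.00113) and higher in NUP98-NSD1 than in HoxA9+Meis1 by 1.56 (adjusted p = 0.000102).

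Transcription factors of granulocyte development, 12 of them tested, were called in both directions. Over all genes, 31.4% were called for NUP98-NSD1 against HoxA9 and 32.6% against HoxA9+Meis1. Against HoxA9, Stat3 (1.20, adjusted p = 5.62e-05) and Runx1 (0.80, adjusted p = 0.0106) were higher in NUP98-NSD1. Lef1, Klf5 and Cebpa were lower, Cebpa with a difference of -0.67 (adjusted p = 0.0106). With a common hybridization control level Runx1 fell to 0.03 (0.912), while Stat3 (0.42, 0.0273) stayed higher and Cebpa (-1.44, 2.98e-05) lower. The Cebpa call was lost with a common median (0.131). Another Runx1 probe set was higher (0.71, adjusted p = 0.0156). The remaining tested ones were not called, at 0.71 (0.0729), 0.33 (0.306), -0.10 (0.702) and -0.39 (0.285), so the rise is not settled for that gene. The Klf5 count rests on its brightest probe set (-1.07, adjusted p = 0.00438), and another Klf5 probe set was higher (1.87, adjusted p = 0.00423), so the gene has no settled direction. The Lef1 call was lost without HoxA9 clone 2 (0.0776) or clone 3 (0.0647). The probe sets of Myb, which is not counted in this comparison, also disagreed in sign. Against HoxA9+Meis1, 5 were higher in NUP98-NSD1 and 2 lower. The 5 include Myb (0.21, adjusted p = 0.0285), whose other probe sets gave 1.00 (1.28e-05) and -0.25 (0.0199). The 2 include Klf5 (-1.09, adjusted p = 0.00355), whose other tested probe set was again higher (1.76, 0.00519). Gfi1, a repressor needed for granulocyte development, was higher by 2.14 (SE 0.22, adjusted p = 0.000112), Cebpd by 1.23 (adjusted p = 0.00186) and Cebpb by 1.06 (adjusted p = 0.00109). With a common hybridization control level the Cebpd (0.063) and Cebpb (0.0802) calls were lost, and that of Gfi1 held (9.87e-05). The same 3 factors were lower in HoxA9+Meis1 than in HoxA9, with differences of -1.73 for Gfi1 (adjusted p = 0.000995), -1.22 for Cebpb (adjusted p = 0.0017) and -1.19 for Cebpd (adjusted p = 0.00713). Spi1, which encodes PU.1, gave 0.02 between NUP98-NSD1 and HoxA9 (adjusted p = 0.916).

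Primary granule genes are made earlier. In the list used for them 8 genes were tested, and 6 were above the filter level on every array with signals of 10516 or more. Nkg7, also a cytotoxic granule gene, was under that level in HoxA9, and Fcnb read 502 in MLL-ENL. Of these 8, 7 were called higher and 0 lower in NUP98-NSD1 against HoxA9 and 8 higher against HoxA9+Meis1, with medians of 0.64 and 1.90. Over all genes, 31.4% and 32.6% were called in these comparisons. Mpo, myeloperoxidase, read 221677 in MLL-ENL, 196759, 216055 and 237929 in NUP98-NSD1, 148102, 145387 and 151814 in HoxA9+Meis1, and 132165, 142660.0 and 126200 in HoxA9, a log2 difference of 0.70 between NUP98-NSD1 and HoxA9 (SE 0.08, adjusted p = 0.000203). With quantile normalization that Mpo difference was -0.0075 (adjusted p = 0.909), and with a common hybridization control level -0.083 (0.417). The Prtn3, Ctsg and Elane calls against HoxA9 were lost or turned lower under both scalings. With the control level Ctsc, Nkg7 and Fcnb stayed higher than in HoxA9. Against HoxA9+Meis1 that level made Mpo lower (-0.23, adjusted p = 0.0339), and the Prtn3, Ctsg and Ctsc calls were lost. Elane, Ms4a3, Nkg7 and Fcnb stayed higher there. Elane, neutrophil elastase, was low in HoxA9+Meis1, with a difference of -2.64 from HoxA9 (adjusted p = 2.84e-05). Of 8 mature neutrophil surface genes, 5 were higher and 0 lower in NUP98-NSD1 than in HoxA9, where 31.4% of genes were called. Among them were Csf3r, the G-CSF receptor, by 1.41 (adjusted p = 0.00085), and Cxcr2, a chemokine receptor, at least 3.02-fold (adjusted p = 0.00121). However, Cxcr2 passed the filter only through the 3 NUP98-NSD1 clones. With a common hybridization control level Csf3r (0.63, adjusted p = 0.0161) and Cxcr2 (1.63, 0.00373) stayed higher than in HoxA9. The calls of the others, Selplg (0.765), Clec4e (0.473) and Cxcr4 (0.514), were lost at that level. Another Clec4e probe set was not called in the main fit, at 0.16 (0.678). Against HoxA9+Meis1, where 32.6% of genes were called, 2 of the 8 were higher in NUP98-NSD1 and 2 lower. The lower ones were Selplg with -0.50 (adjusted p = 0.0213) and Clec4d with -0.74 (adjusted p = 0.0295). The Selplg call was lost without clone 1 or 2 of either group (adjusted p at most 0.0824). That of Clec4d was lost without NUP98-NSD1 clone 3 or HoxA9+Meis1 clone 1 or 3 (at most 0.105). With a common median both calls were lost (0.257 and 0.0547).

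The 3 measured genes on each side of each member, in RefSeq gene order, gave 54 neighbours that are not members. Of these, 6 were called higher and 5 lower in NUP98-NSD1 than in HoxA9 (20.4%, where 31.4% of all genes were called), 6 higher and 6 lower in NUP98-NSD1 than in HoxA9+Meis1 (22.2%, where 32.6% were), and 1 higher and 2 lower in HoxA9+Meis1 than in HoxA9 (5.56%, where 8.66% were). The called shares were thus no higher than over all genes. Their medians were -0.12, -0.01 and -0.12. Those higher in NUP98-NSD1 than in HoxA9 were S100a4 and S100a6 beside the calprotectin genes, Ptpn23 beside Ngp, Lrrfip2 near Ltf, and Mmp12 and Birc2 near Mmp8. Those higher than in HoxA9+Meis1 were S100a6, Ptpn23, Lrrfip2, Mmp12, Ciz1 near Lcn2 and Sema6b beside Lrg1. Mmp12 passed the filter only through the 3 NUP98-NSD1 clones. Ptpn23, a phosphatase gene with 0 annotated genes between it and Ngp, read 1305 in MLL-ENL, 1376, 1447 and 1273 in NUP98-NSD1, 139, 112 and 326 in HoxA9+Meis1, and 326, 149 and 297 in HoxA9. Its MLL-ENL signal was as high as in NUP98-NSD1, whereas that of Ngp was the lowest of all 10 arrays.

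Over the 10 arrays, each member was set against the mean of the other members, on the log2 scale and with 1 probe set per gene. Pearson's r was 0.96 for Ngp and for Camp, 0.90 for Pglyrp1, 0.67 for Mmp8 and 0.40 for Mmp9, and 0.84 to 0.85 for the other 5. The 8 probe sets of other genes closest to the member mean, among 8160 candidates, were those of Fcnb, a ficolin of neutrophil granules (r = 0.98), Coro2a (0.98), Glrx (0.97), Entpd5 (0.97), Tmem40 (0.97), Ffar2 (0.97) and Ceacam1 (2 probe sets, both 0.96). Fcnb read 502 in MLL-ENL, 24892, 25357 and 82139.7 in NUP98-NSD1, 1909.7, 1779 and 638 in HoxA9+Meis1, and 804, 1603 and 1363 in HoxA9. Ffar2 read 1944, 1546 and 3749 in NUP98-NSD1 and at most 242 elsewhere. Like Camp, it could pass the filter only as a gene that was high in NUP98-NSD1. With group means taken off, so that only differences between clones within a group counted over the 9 clones, the closest of 9808 candidates were Cd33, Irf7, B430306N03Rik, Slc7a7, Pilra, Cd52, Cd300lf and Galns (r = 0.98 to 0.96). Cd52, a surface glycoprotein of leukocytes, read 16544, 20278 and 66902 in NUP98-NSD1, 15028, 19397 and 6252 in HoxA9+Meis1, and 715, 1565 and 3217 in HoxA9. These correlations describe arrays that share groups, clones and sets of arrays, and they carry no test.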

How the data were processed

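Gene expression was measured in 10 cultures, 1 per array, grouped by the oncogene in the labels. The deposited table holds 1 linear intensity per probe set and array, and the software that made it is not given in the sources used here. By its values, the trimmed mean, with 2% of probe sets left off at each end, is 2500.01 to 2500.02 on every array, so the deposited intensities were used without further normalization. They were analysed as log2(signal + 32), and fold changes are folds of signal + 32, which understate changes of dim genes. A filter kept the 30945 probe sets whose signal exceeded 369.318, the 40th percentile of the table, on 3 or more arrays. Lower bounds of a fold replace the dimmer group, where all its arrays were under that level, by the level itself.

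Gene symbols came from the platform annotation, updated by Entrez ID for 34754 probe sets; 34945 carry 1 symbol, 932 several and 9160 none, besides 64 control probe sets. Promoter sequences and gene order are from RefSeq (GRCm38.p6 for the promoters).

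The comparisons used limma 3.58.1 (R 4.3.3) with 4 group means, eBayes with an intensity trend and 6 residual degrees of freedom. Calls were made at a two-sided Benjamini-Hochberg adjusted p under 0.05 over all kept probe sets. The number of arrays limits the precision. Python 3.11.15 with matplotlib 3.10.9 drew the figures. The fit was also tried on simulated data with 200 of 30945 probe sets changed, 50 of them at each size. It recovered 36%, 74% and 88% of log2 changes of size 1, 2 and 3 in NUP98-NSD1 against HoxA9. The shares were 34%, 62% and 90% in NUP98-NSD1 against HoxA9+Meis1 and 42%, 62% and 84% in HoxA9+Meis1 against HoxA9. With 50 probe sets per share, differences between the comparisons are not interpreted. The measured arrays gave calls for 29.0%, 30.9% and 6.89% of probe sets in these comparisons. Recovery at such proportions was not simulated, so the shares are not the power of the real comparisons.

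Every member probe set was named, with up to 4 called genes each way per other list and comparison, genes that account for a count, the 3 measured neighbours on each side, and the 8 most similar probe sets. Spi1 was added to show the factor of a motif, and Birc2 to account for a count. The members and lists were chosen with earlier results of these data known. Alternatives were quantile normalization, a common median, a common hybridization control level, offsets of 1 and 100, no filter and the 60th percentile, 1 probe set per gene, eBayes without a trend or robust, the compared groups alone, no MLL-ENL array, the clone number as a block, and each clone left out. Setting all values under the filter level to that level was added after seeing the data.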

Additional observations from a re-analysis of the deposited data

How the results depend on the processing

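Of the 3 tested comparisons, the number of members called higher stayed at 7 to 9 for NUP98-NSD1 against HoxA9 (9 as reported) and at 6 to 9 against HoxA9+Meis1 (8 as reported) over 20 alternatives each, with 0 called lower throughout. For HoxA9+Meis1 against HoxA9 it was 1 in place of 2 with eBayes without a trend and with robust eBayes, and 1 to 3 when a clone was left out. The members counted as higher in MLL-ENL than in HoxA9+Meis1 were 0 in place of 1 with a common hybridization control level and with an offset of 100, and 0 to 1 when a clone was left out; beside HoxA9 they were 1 to 2 when a clone was left out. Those counted as lower were 9 in each case beside NUP98-NSD1, 3 to 4 beside HoxA9+Meis1 and 2 to 4 beside HoxA9 when a clone was left out. Single members turned sign where their difference was near 0. Mmp9 became -0.71 for NUP98-NSD1 against HoxA9 and -0.38 against HoxA9+Meis1 with a common hybridization control level. With a clone left out, it was -0.53 to 0.82 against HoxA9 (-0.19 without NUP98-NSD1 clone 2, -0.53 without clone 3 and -0.0069 without HoxA9 clone 3). Against HoxA9+Meis1 it was -0.21 (without NUP98-NSD1 clone 3) to 1.14. For HoxA9+Meis1 against HoxA9, Camp was -0.17 (without HoxA9+Meis1 clone 1) to 0.38, and S100a8 was -1.56 to 0.35 (without HoxA9+Meis1 clone 3). Calls were lost for S100a8 against HoxA9 in 8 of 20 alternatives, Lcn2 against HoxA9 in 7 (highest adjusted p = 0.125), Ltf against HoxA9+Meis1 in 5 (0.0711), S100a9 against HoxA9+Meis1 in 1 (robust eBayes, 0.0536) and S100a9 for HoxA9+Meis1 against HoxA9 in 5 (0.0908); the cause was not tested. Mmp8 for NUP98-NSD1 against HoxA9+Meis1 passed with a common median (adjusted p = 0.0449).

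Counts over all probe sets moved more. Those called higher in NUP98-NSD1 than in HoxA9 ranged from 741 to 4460 (3815 as reported) and lower from 2395 to 19570 (5164), and against HoxA9+Meis1 from 876 to 4493 (4262) and from 2592 to 19020 (5313). The common hybridization control level gave the most lower and the fewest higher. For HoxA9+Meis1 against HoxA9 they ranged from 470 to 1258 (1051) and from 499 to 1245 (1080). Deviations of clones with the same number correlated at -0.064 to 0.043, so the clone numbers do not pair the cultures. With the clone number as a replicate block, the members called higher were 9, 8 and 2, as without it. Of the 8 most similar probe sets over 10 arrays, 4 to 7 were shared with those reported under the alternative scalings and offsets.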
